A study of Mus musculus with 6 samples.

Results

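NRF2 targets and antioxidant enzymes are a set of 42 genes chosen by symbol, and all 42 were found among the 23393 named genes of the mouse count table. All 42 also passed the filter on low counts (at least 10 reads in 3 or more libraries), which left 13866 genes in the test. Poly(A) RNA from small intestine of C57BL/6 mice aged 12 weeks was sequenced in 6 libraries. All mice were PKClambda f/f and PKCzeta f/f, so the controls too carried floxed genes for these atypical kinases. The 3 WT libraries hold intestine of Villincre-negative mice, and the 3 DKO tumour libraries hold tumours from the small intestine of Villincre-positive mice. The Villin promoter drives the recombinase in intestinal epithelium, so the floxed genes stay intact in stroma, vessels and immune cells. Tumour and normal tissue, the recombinase and the labelled double knockout changed together and cannot be told apart.

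NRF2, the product of Nfe2l2, is a transcription factor that KEAP1 holds in the cytoplasm and hands to a ubiquitin ligase for destruction. Oxidants and electrophiles modify KEAP1, and NRF2 then enters the nucleus, pairs with a small MAF protein and binds antioxidant response elements, where BACH1 competes with it as a repressor. Its known targets make glutathione, recycle thioredoxin, supply NADPH and detoxify quinones and carbonyls, while catalase and the superoxide dismutases remove hydrogen peroxide and superoxide and respond to further regulators. In the gut the same enzymes meet food-borne electrophiles, bacterial products and oxidants made by inflammatory cells.

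Library totals were 12491561 to 15799269 counts. Prkcz was at 60.8 to 70 CPM (each gene's counts scaled to a common library size, the size set by the trimmed mean of M-values, TMM) in WT intestine and at 14.7 to 19.3 CPM in tumours (log2 fold change -1.99, SE 0.15, edgeR adjusted p = 0.000233). Prkci was at 53.2 to 80.6 CPM and 80.3 to 103 CPM (log2 fold change 0.41, adjusted p = 0.134), so counts of the whole gene did not show the PKClambda deletion that the label names, and which exons were floxed is not given in the labels. The labelled tissue showed its markers, since Lct, Sis and Vil1 stood at 1830 CPM or more in every WT library. The tumours differed from each other in genes of gut position. The summed level of 4 duodenal genes was 4080, 181 and 1060 CPM in DKO tumours 1 to 3, against 144 to 159 CPM in WT intestine. Cybrd1 (2190, 11.9 and 460 CPM in the tumours) and Slc40a1 (1740, 55.2 and 432 CPM) made up most of it in DKO tumours 1 and 3. Gata4 stayed near its WT level of 127 to 137 CPM, at 122, 112 and 154 CPM. The 5 ileal genes summed to 9.52, 153 and 6.44 CPM in DKO tumours 1 to 3 and 49.5 to 72.3 CPM in WT intestine. A fold change is DKO tumour over WT intestine throughout, on the log2 scale, and a gene is said to rise or fall where the adjusted p of edgeR's quasi-likelihood test, taken over all 13866 genes, was under 0.05. These are whole-tissue counts, in which fewer cells of a type and less RNA per cell cannot be told apart.

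Of the 42 genes, 14 rose, 5 fell and 23 did not pass the test. The shares were 33.3% for rises, where the background over all genes was 15.9%, and 11.9% for falls, where it was 13.8%. The libraries of the 2 groups did not overlap in 28 of the 42 genes, 20 with every tumour above every WT library and 8 below, against a background of 48.0% of all genes without overlap. The median log2 fold change was 0.37 over the 42 genes and 0.02 over all genes tested. By role, 6 of 8 genes rose in the group of quinone, carbonyl and heme enzymes and other targets, 2 of 5 each in the glutathione synthesis, NADPH supply and glutathione peroxidase groups, 1 of 6 peroxiredoxins, 1 of 4 in the superoxide and catalase group, and none in the thioredoxin group or among the regulators. In those 2 groups edgeR gave an unadjusted p under 0.05 with a positive fold change for Txnrd1 (0.0197) and Keap1 (0.0353), and DESeq2 called Txnrd1 higher. Among their genes without a call, Txn2 had such a p with a negative fold change (0.0234), and DESeq2 called it lower. Without scaling for library composition (library totals), the median of all genes moved by 0.256, and the split was 24 rises and 3 falls among the 42 and 3767 rises and 1071 falls over all genes. With WT intestine 2 left out, 3 of the 42 and 1072 of all genes fell, and with DKO tumour 3 left out 3 and 883, so the falls of the whole table shrank as well.

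**Figure D1:**
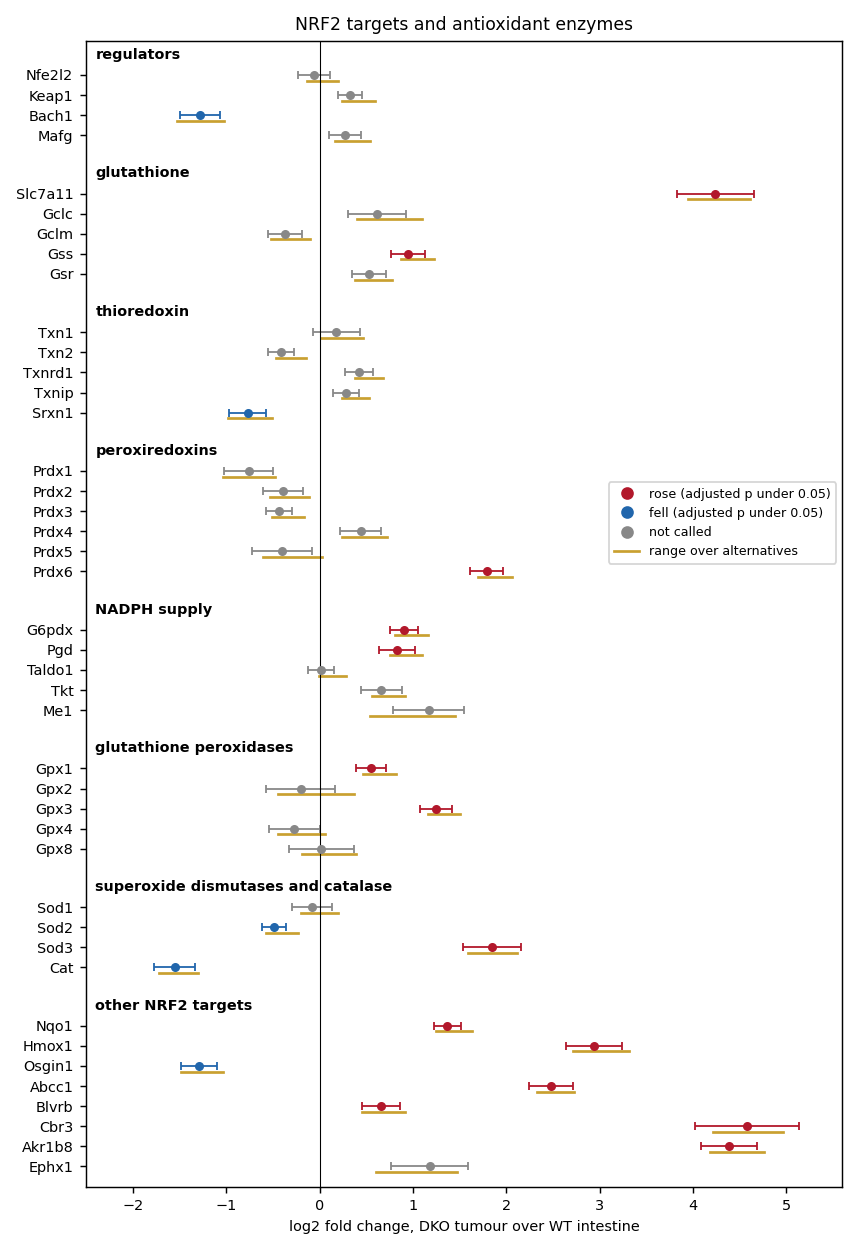
Log2 fold change of DKO tumour over WT intestine for the 42 genes in 8 role groups, with the standard error as bars (3 libraries a group) and, below each point, the range over the alternative settings. Red points rose, blue points fell and grey points did not pass the test; Cbr3 (4.58), Akr1b8 (4.39) and Slc7a11 (4.24) lie farthest to the right and Cat (-1.55) farthest to the left.

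Antioxidant response elements were looked for in the RefSeq promoters (build GRCm38.p6, 250 bases before to 50 after each annotated start). The core TGACNNNGC, on either strand, lay in the window of 10 of the 36 members with a promoter in the table, and in 14% of 27025 genes. Of the members that rose, 2 of 10 held it (G6pdx and Pgd, the latter 3 bases after its second annotated start), of those that fell 1 of 5 (Srxn1), and of the rest 7 of 21 (Nfe2l2, Mafg, Gclm, Txnrd1, Prdx1, Me1 and Sod1). The AP-1 site TGANTCA, which reads the same on both strands, lay in 4 of the 36 and in 8.97% of all genes. In Prdx1 and Me1 it overlaps the core, and Srxn1 and Prdx1 each hold 2 such sites. Nqo1, Cbr3 and Akr1b8 held neither motif in this window, which says only that these letters are not there. Gclc, Gsr, Prdx6, Sod3, Hmox1 and Abcc1 had no entry. Sequence is printed 5′ to 3′ for G6pdx, a risen gene (30 bases around its core, which begins 57 bases before the start and lies in the first exon of a longer GENCODE M21 isoform), and for Srxn1 and Prdx1, the targets with 2 AP-1 sites and lower tumour levels (the bases upstream of the gene's GENCODE limits). Capitals mark the core in G6pdx, the AP-1 sites in Srxn1, and both in Prdx1, whose core GCTGAGTCA runs into an AP-1 site. The core of Srxn1, GCTAGGTCA, begins 28 bases after its start and is not in the printed stretch. The second AP-1 site printed for Srxn1 is followed by gc, and with these bases differs from the searched core only in having G for C.
G6pdx, chrX:74428918-74428947, minus strand: aggcgggtcaGCTCAGTCAaagcacacgcc
Srxn1, chr2:152105274-152105515, plus strand: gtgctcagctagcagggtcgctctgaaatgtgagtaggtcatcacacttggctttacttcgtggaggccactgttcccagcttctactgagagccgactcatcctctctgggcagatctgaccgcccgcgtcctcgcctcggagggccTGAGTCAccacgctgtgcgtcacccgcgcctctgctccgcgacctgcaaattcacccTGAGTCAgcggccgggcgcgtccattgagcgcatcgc
Prdx1, chr4:116685349-116685543, plus strand: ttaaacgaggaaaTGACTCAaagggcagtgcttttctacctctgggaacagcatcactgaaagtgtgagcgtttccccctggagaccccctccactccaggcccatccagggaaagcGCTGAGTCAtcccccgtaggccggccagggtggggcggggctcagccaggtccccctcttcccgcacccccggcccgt

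Among the regulators, the repressor gene Bach1 fell and the activator gene Nfe2l2 did not pass the test. Bach1 (chromosome 16, 87698945 to 87733346) was at 256, 220 and 205 CPM in WT intestine 1 to 3 and at 73.9, 123 and 83 CPM in DKO tumours 1 to 3. Every tumour lay below every WT library (log2 fold change -1.28, SE 0.21, edgeR adjusted p = 0.00441). Nfe2l2 (chromosome 2, 75675513 to 75704641) was at 330, 364 and 315 CPM in WT intestine and at 346, 268 and 354 CPM in tumours. The groups overlapped (log2 fold change -0.06, SE 0.17, adjusted p = 0.809), and the fold change took either sign under other settings. Within a library, where no scaling enters, the ratio of Nfe2l2 to Bach1 per kilobase of exon was 2.1, 2.69 and 2.5 in WT intestine and 7.62, 3.54 and 6.95 in tumours. This pair, like the other ratios given here, was picked after its values had been seen. Keap1, the NRF2 inhibitor, was at 55 to 59.7 CPM in WT intestine and 63.9 to 79.5 CPM in tumours without overlap, and its adjusted p was 0.0911. Mafg, a small MAF partner, was at 26.9 to 39.5 CPM and 36.5 to 39.4 CPM (adjusted p = 0.269).

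In the glutathione group, the cystine importer and glutathione synthetase rose, and the subunits of the rate-limiting ligase did not pass the test, although the catalytic one did without WT intestine 1. Slc7a11, the light chain of the cystine and glutamate exchanger (chromosome 3, 49892526 to 50443614), had 7, 18 and 29 reads in WT intestine 1 to 3 and 587, 243 and 347 reads in DKO tumours 1 to 3. In CPM this was 0.661, 1.41 and 1.88 against 34.9, 16.3 and 25.7 (log2 fold change 4.24, SE 0.41, edgeR adjusted p = 0.000569), or 18.9-fold. The tumour with the least Slc7a11 was thus far above the WT library with the most, although the gene stayed the lowest of all 42 per kilobase of exon in both groups (0.0948 and 1.84 CPM per kb). Its partner chain gene Slc3a2, which is not a member and was picked for its role after its value was seen, fell, being at 560, 261 and 289 CPM in WT intestine and 131, 154 and 161 CPM in tumours (log2 fold change -1.31, SE 0.29, adjusted p = 0.014).

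Gss, which joins glycine to complete glutathione (chromosome 2, 155563181 to 155592810), was at 153, 109 and 106 CPM in WT intestine and 219, 241 and 255 CPM in tumours. The lowest tumour exceeded the highest WT library (log2 fold change 0.95, SE 0.18, edgeR adjusted p = 0.00691). Parts of 3 opposite-strand genes overlap its exons, and 3.23% of the 75-base stretches (the read length) of its longest transcript occur in them. Gclc, the catalytic subunit of glutamate-cysteine ligase, was at 197, 84.1 and 95.9 CPM in WT intestine and 221, 175 and 185 CPM in tumours, so that WT intestine 1 alone reached the tumour range (log2 fold change 0.62, SE 0.31, adjusted p = 0.165). Without that library Gclc passed the test, at 1.10 on the log2 scale (adjusted p = 0.00523). Gclm, the modifier subunit, was at 163, 143 and 119 CPM against 130, 92.3 and 106 CPM (log2 fold change -0.37, SE 0.18, adjusted p = 0.145). Gclc and Gclm therefore had fold changes of opposite sign, and their ratio per kilobase was 0.983 to 2.02 in WT intestine and 2.85 to 3.16 in tumours. Gsr, the reductase that regenerates glutathione with NADPH, was at 234 to 288 CPM and 320 to 453 CPM without overlap, just short of the threshold (log2 fold change 0.53, SE 0.18, adjusted p = 0.0578; 0.0192 under library totals).

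No gene of the thioredoxin group rose, and Srxn1 fell. Srxn1, sulfiredoxin, which repairs overoxidised peroxiredoxins and is a classical NRF2 target (chromosome 2, 152105516 to 152111376; its upstream sequence is printed above), was at 483, 410 and 381 CPM in WT intestine and 210, 315 and 221 CPM in tumours. The groups did not overlap (log2 fold change -0.77, SE 0.20, edgeR adjusted p = 0.025), but the call was lost when WT intestine 2 (adjusted p = 0.0717), DKO tumour 1 (0.0504) or DKO tumour 3 (0.107) was dropped, and under library totals (0.0674). Txnrd1, the NADPH-dependent thioredoxin reductase of the cytosol, was at 371 to 397 CPM in WT intestine and 482 to 543 CPM in tumours (log2 fold change 0.42, SE 0.15, adjusted p = 0.0607). It lay higher in every tumour without passing the test. Txn1, the cytosolic thioredoxin and the most abundant of the 42 per kilobase, was at 1230, 801 and 664 CPM in WT intestine and 1080, 1010 and 971 CPM in tumours (adjusted p = 0.613). Txn2, the mitochondrial form, was at 112 to 147 CPM and 91.1 to 101 CPM without overlap (log2 fold change -0.41, SE 0.14, adjusted p = 0.0681). Txnip, an arrestin-like protein that binds and inhibits thioredoxin, was at 320 to 347 CPM and 375 to 428 CPM (adjusted p = 0.177), and 16.7% of its 75-base stretches lie in the antisense gene Gm15441, which had 54 reads in all.

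Among the 6 peroxiredoxins, Prdx6 rose and the other 5 did not pass the test. Prdx6, which reduces phospholipid hydroperoxides with glutathione rather than thioredoxin (chromosome 1, 161240112 to 161251219), was at 261, 227 and 214 CPM in WT intestine and 718, 911 and 804 CPM in tumours. The tumours were 3.47-fold higher on the fitted scale (log2 fold change 1.79, SE 0.18, edgeR adjusted p = 0.00058). Prdx1, a cytosolic thioredoxin-dependent peroxidase and NRF2 target (upstream sequence above), was at 1400, 1120 and 940 CPM in WT intestine and 915, 546 and 587 CPM in tumours. All 3 tumours lay below all WT libraries, DKO tumour 1 by a narrow margin (log2 fold change -0.76, SE 0.26, adjusted p = 0.0607; 0.0148 without DKO tumour 1 and 0.0104 with DESeq2). Per kilobase of exon, Prdx6 made up 6.08% to 7.85% of the peroxiredoxin reads in WT intestine and 21.3%, 34.6% and 28.6% in DKO tumours 1 to 3, while Prdx1 went from 51.4% to 55.6% down to 42.9%, 32.7% and 33%. The ratio of Prdx6 to Prdx1 was 0.118 to 0.144 in WT intestine and 0.497, 1.06 and 0.868 in tumours.

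The other peroxiredoxins had fold changes of either sign. Prdx3, the mitochondrial enzyme, was at 85.7 to 104 CPM in WT intestine and 63.1 to 79.5 CPM in tumours without overlap (log2 fold change -0.43, SE 0.14, edgeR adjusted p = 0.0523). Prdx2, a cytosolic enzyme abundant in red cells, was at 131 to 207 CPM and 107 to 147 CPM (adjusted p = 0.185). Prdx4, the form of the endoplasmic reticulum, was at 20.4 to 29.7 CPM and 26.7 to 40.5 CPM (adjusted p = 0.158). Prdx5, an atypical peroxiredoxin of mitochondria and peroxisomes, was at 490, 258 and 220 CPM and 178 to 278 CPM (adjusted p = 0.378), and its fold change turned from -0.40 to 0.0295 without WT intestine 1. Of the 75-base stretches of Prdx5, 28.2% are shared with the overlapping gene Trmt112, and 17.4% of those of Prdx2 lie in Junb, Rnaseh2a or a pseudogene.

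**Figure D2:**
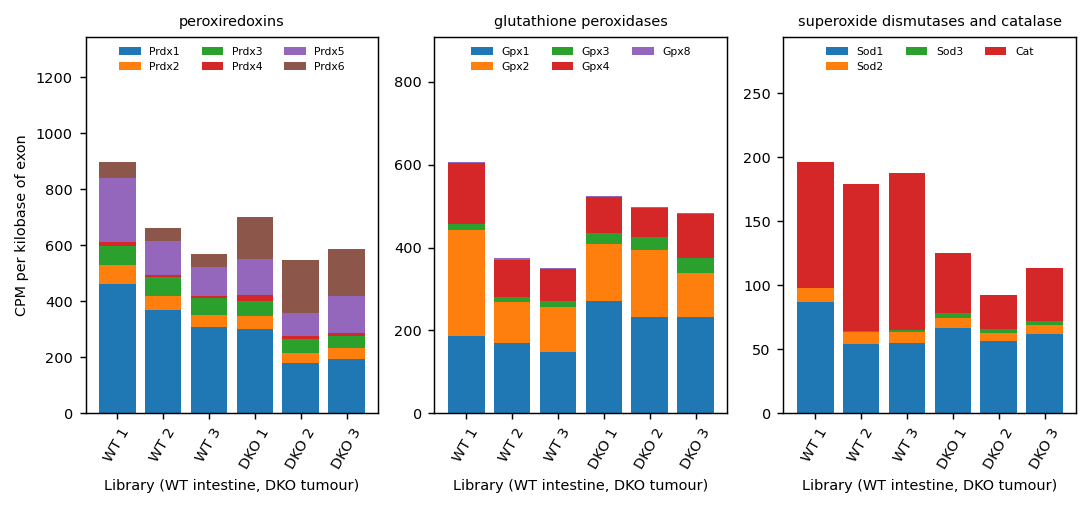
Summed level in CPM per kilobase of exon for 3 enzyme families in each of the 6 libraries, each bar split by gene. Prdx6 takes 6.08% to 7.85% of the peroxiredoxin bar in WT intestine and 21.3% to 34.6% in tumours, and Cat takes 50% to 65.5% of its family's bar in WT intestine and 29.2% to 37.3% in tumours. The Cat share depends on the exon length taken for Sod1 (3970 bases, against 641 in its longest coding transcript). A shorter length would lower the Cat share in every library.

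Both dehydrogenases of the oxidative pentose phosphate pathway, which make NADPH, rose, and the 3 other NADPH supply genes did not pass the test. G6pdx, glucose-6-phosphate dehydrogenase (X chromosome, 74409483 to 74429194), was at 73.9, 71.2 and 79.1 CPM in WT intestine and 117, 144 and 159 CPM in tumours (log2 fold change 0.91, SE 0.15, edgeR adjusted p = 0.00409). Its retrogene copy G6pd2 held 3 reads in all libraries together, and Ikbkg on the opposite strand overlaps part of its exons. Pgd, 6-phosphogluconate dehydrogenase (chromosome 4, 149149991 to 149166771), was at 364, 270 and 273 CPM in WT intestine and 468, 559 and 584 CPM in tumours (log2 fold change 0.83, SE 0.19, adjusted p = 0.0138). The Pgd groups did not overlap, but its call was lost when WT intestine 2 (adjusted p = 0.0688), WT intestine 3 (0.0502) or DKO tumour 3 (0.0633) was dropped. In the non-oxidative arm, which returns pentoses to glycolysis, Tkt (transketolase) was at 527, 394 and 468 CPM against 550, 821 and 821 CPM (log2 fold change 0.66, SE 0.22, adjusted p = 0.053). Taldo1 (transaldolase) was at 347 to 392 CPM and 357 to 381 CPM (log2 fold change 0.02, SE 0.14, adjusted p = 0.932). The ratio of G6pdx to Taldo1 per kilobase was 0.133 to 0.161 in WT intestine and 0.221 to 0.314 in tumours. Me1, malic enzyme of the cytosol, was at 32, 26.6 and 25 CPM in WT intestine and 107, 35.9 and 45.2 CPM in tumours (log2 fold change 1.17, SE 0.38, adjusted p = 0.0525; 0.54 on the log2 scale without DKO tumour 1). DKO tumour 1 stood far above the other tumours in Me1 as it did in the summed duodenal genes. The part of gut position, which the labels do not give, was not tested. Other annotated genes, Gm7049 among them, share 23.1% of the 75-base stretches of Me1.

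Of the 5 glutathione peroxidases, Gpx1 and Gpx3 rose. Gpx3, the secreted plasma enzyme (chromosome 11, 54902453 to 54910377), was at 23.4, 22.2 and 28.9 CPM in WT intestine and 49.7, 61.2 and 66.8 CPM in tumours (log2 fold change 1.25, SE 0.17, edgeR adjusted p = 0.0019). The lowest tumour value was above the highest WT value. Gpx1, the ubiquitous cytosolic enzyme (chromosome 9, 108338903 to 108340343), was at 269, 243 and 212 CPM against 390, 335 and 336 CPM (log2 fold change 0.55, SE 0.16, adjusted p = 0.0332). Its groups did not overlap, but the call ended without any 1 library other than WT intestine 1 (adjusted p = 0.0569 to 0.11). Gpx2, the gastrointestinal enzyme and an NRF2 target, was at 826, 320 and 350 CPM in WT intestine and 443, 517 and 340 CPM in tumours. WT intestine 1 was the highest of the 6 libraries, and the fold change of -0.20 (SE 0.37, adjusted p = 0.709) turned to 0.366 without it; 10.3% of its 75-base stretches lie in a pseudogene. Gpx4, which protects membranes against lipid peroxidation, was at 255, 154 and 132 CPM against 148, 119 and 181 CPM (adjusted p = 0.475), and 55.3% of its 75-base stretches occur in the pseudogene Gpx4-ps2. Gpx8, of the endoplasmic reticulum, was at 2.27 to 4.87 CPM and 2.41 to 4.22 CPM (adjusted p = 0.974).

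In the superoxide dismutase and catalase group, Sod3 rose while Sod2 and Cat fell. Cat, the peroxisomal enzyme that splits hydrogen peroxide (chromosome 2, 103453849 to 103485160), was at 256, 300 and 322 CPM in WT intestine and 122, 70.6 and 107 CPM in tumours. The highest tumour lay below the lowest WT library (log2 fold change -1.55, SE 0.22, edgeR adjusted p = 0.00242), or 2.93-fold lower. Sod2, the mitochondrial superoxide dismutase (chromosome 17, 13006846 to 13040063), was at 104, 94.3 and 90.8 CPM against 75.6, 61.6 and 68.4 CPM (log2 fold change -0.49, SE 0.13, adjusted p = 0.026). That call ended under library totals (0.213), under upper-quartile factors (0.052) and when WT intestine 2, WT intestine 3, DKO tumour 2 or DKO tumour 3 was dropped (0.0564 to 0.101). Sod3, the extracellular form (chromosome 5, 52363791 to 52371418), had 22, 49 and 72 reads in WT intestine and 271, 160 and 158 reads in tumours, or 2.08 to 4.67 CPM and 10.7 to 16.1 CPM (log2 fold change 1.85, SE 0.31, adjusted p = 0.00471). Sod1, the cytosolic copper and zinc enzyme, was at 346, 215 and 217 CPM and 224 to 265 CPM, with a fold change of -0.08 (adjusted p = 0.802) that took a positive sign under library totals, and 12.2% of its 75-base stretches lie in the gene Gm8566. The ratio of Sod1 to Cat per kilobase was 0.442 to 0.889 in WT intestine and 1.43 to 2.09 in tumours. The size of this ratio depends on the exon length taken for Sod1 (3970 bases, against 641 in its longest coding transcript). The relative change of the ratio between groups does not.

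The fall of Cat stood beside a lower level of enterocyte genes, and the rise of Sod3 and Gpx3 beside a higher level of fibroblast genes. Of 8 enterocyte markers, 6 fell, and their summed level was 37000 to 58300 CPM in WT intestine and 19600 to 24000 CPM in tumours, with none at 0. Among the WT libraries, WT intestine 1 held the most of these markers and the least Cat (256 CPM). Of 7 fibroblast markers, 6 rose, with sums of 274 to 408 CPM and 857 to 1250 CPM. WT intestine 1 held the least of the fibroblast markers and the least Sod3 (2.08 CPM). Among tumours, DKO tumour 1 held the least of them and the most Sod3 (16.1 CPM), and DKO tumour 3 the most of them and the most Gpx3 (66.8 CPM). Smooth muscle markers fell in 6 of 7 cases, with sums of 1240 to 1570 CPM and 587 to 886 CPM. Other cell types moved too, with 6 of 6 Paneth markers lower (12300 to 15200 CPM and 282 to 771 CPM), 3 of 6 goblet markers lower (8420 to 9410 CPM and 3880 to 7010 CPM) and 4 of 6 endothelial markers higher (72.9 to 89.2 CPM and 113 to 170 CPM). The part of these cell types in the results was not tested.

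Among the remaining NRF2 targets, 6 of 8 rose and Osgin1 fell. Akr1b8, an aldo-keto reductase that reduces aldehydes (chromosome 6, 34354119 to 34368463), was at 3.87, 5.26 and 8.3 CPM in WT intestine and 137, 96.7 and 137 CPM in tumours. It had the smallest adjusted p of the 42 (log2 fold change 4.39, SE 0.30, edgeR adjusted p = 0.000158), a 21-fold difference, and 0.467% of its 75-base stretches are shared with its paralog Akr1b10. Cbr3, a carbonyl reductase (chromosome 16, 93683215 to 93690990), had 15, 8 and 24 reads in WT intestine and 700, 171 and 449 reads in tumours. This was 0.629 to 1.56 CPM against 41.6, 11.5 and 33.2 CPM (log2 fold change 4.58, SE 0.56, adjusted p = 0.00129), and DKO tumour 2 held the least of the 3 tumours. Per kilobase of exon Akr1b8 moved from rank 36 of the 42 in WT intestine to rank 15 in tumours, and Cbr3 from rank 38 to rank 26.

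Nqo1, the quinone reductase widely used as a readout of NRF2 (chromosome 8, 107388225 to 107403206), was at 33.4, 31.3 and 32 CPM in WT intestine and 80.8, 73 and 95.9 CPM in tumours. It was even among WT libraries and higher in every tumour (log2 fold change 1.37, SE 0.14, edgeR adjusted p = 0.000655). Nqo1 and Srxn1 moved in opposite directions, and their ratio per kilobase was 0.126 to 0.153 in WT intestine and 0.421 to 0.787 in tumours. Hmox1, heme oxygenase 1, which is repressed by BACH1 and opens the heme ring (chromosome 8, 75093621 to 75100589), had 26, 14 and 21 reads in WT intestine and 183, 200 and 172 reads in tumours. In CPM the values were 1.1 to 2.45 and 10.9 to 13.4 (log2 fold change 2.94, SE 0.30, adjusted p = 0.000655). Blvrb, a biliverdin and flavin reductase (chromosome 7, 27447978 to 27466144), was at 17.2 to 19.5 CPM against 36.8, 21.9 and 28.9 CPM (log2 fold change 0.66, SE 0.20, adjusted p = 0.0423). The Blvrb call ended without any 1 library other than DKO tumour 2 (adjusted p = 0.0748 to 0.121).

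Macrophages, which carry much Hmox1 in many tissues, neutrophils and red cells were read by their markers. The 7 macrophage markers summed to 96.2 to 120 CPM in WT intestine and 123 to 148 CPM in tumours, and 3 of them rose, with none at 0. Neutrophil markers summed to 2.08 to 4.02 CPM and 18.2 to 24.4 CPM, and all 4 that were tested rose. Erythroid markers summed to 7.17 to 15.3 CPM and 26.6 to 46.6 CPM, with Hba-a1, Hba-a2 and Hbb-b1 at 0 in every library, and both that were tested rose. The part of these cells in the results for Hmox1, Blvrb and Prdx2 was not tested.

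Abcc1, an export pump for glutathione conjugates (chromosome 16, 14361558 to 14475737), was at 11.5, 10.3 and 12.5 CPM in WT intestine and 42.8, 76.6 and 71.9 CPM in tumours (log2 fold change 2.48, SE 0.24, edgeR adjusted p = 0.000547). The lowest tumour stood well above the highest WT library. Ephx1, the microsomal epoxide hydrolase, was at 12.8, 7.54 and 8.89 CPM against 36.3, 12.2 and 17.5 CPM (log2 fold change 1.18, SE 0.41, adjusted p = 0.0605). Its groups overlapped, as DKO tumour 2 lay below WT intestine 1. The Ephx1 value was 0.609 on the log2 scale without DKO tumour 1 (adjusted p = 0.137) and 1.47 without DKO tumour 2 (0.0233). Osgin1, an oxidative stress-induced growth inhibitor and NRF2 target (chromosome 8, 119434124 to 119446256), was at 59.4, 57 and 68 CPM in WT intestine and 19.6, 31.6 and 24.4 CPM in tumours. It fell by 1.29 on the log2 scale (SE 0.19, adjusted p = 0.00286), with no overlap.

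**Figure D3:**
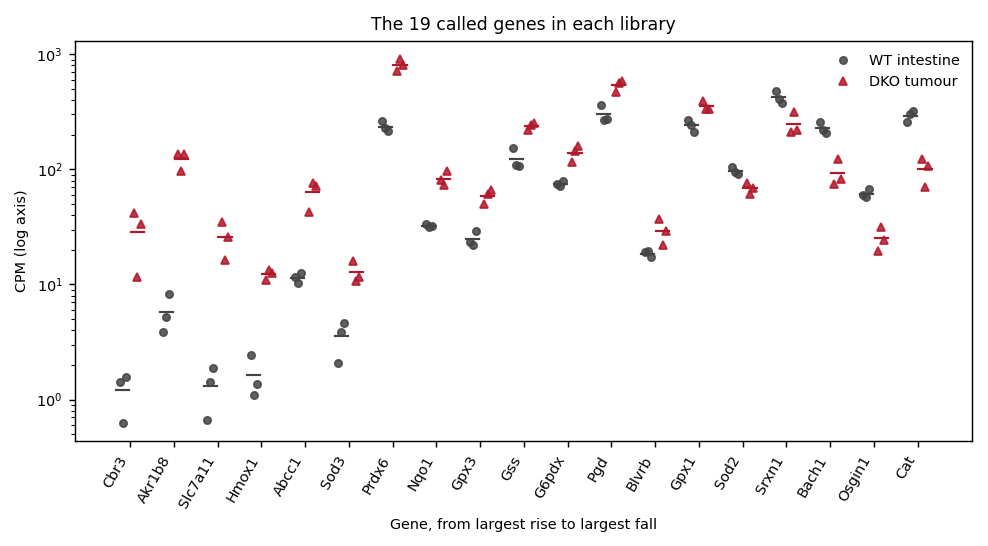
CPM on a log axis of the 19 genes that passed the test, in each WT intestine library (grey circles) and each DKO tumour (red triangles), with the mean of each group as a bar. Genes run from the largest rise, Cbr3, to the largest fall, Cat. In none of the 19 do the 2 groups overlap, but the genes were picked by a test on these same libraries. The lack of overlap therefore adds nothing to the calls, and 48.0% of all genes tested did not overlap either.

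The tumours also differed among themselves. DKO tumour 1 held the highest tumour level in 22 of the 42 genes and the lowest in 13, DKO tumour 2 the highest in 10 and the lowest in 24, and DKO tumour 3 the highest in 10 and the lowest in 5. The widest spread among tumours was in Cbr3 (3.63 times from lowest to highest), Me1 and Ephx1 (2.98 times each) and Slc7a11 (2.14 times). In each of these 4 genes DKO tumour 1 was highest and DKO tumour 2 lowest, the order of the summed duodenal genes. The summed gastric mucous genes had this order too (458, 14.8 and 48.2 CPM in DKO tumours 1 to 3). Tff1 among them did not, at 22.4, 10.7 and 42.3 CPM. The 4 genes were picked for their spread, and the match was made after the values were seen. The part of gut position, which the labels do not give, was not tested. The narrowest spread was in Taldo1 (1.07 times) and Mafg (1.08 times). Summed per kilobase of exon, the group of other NRF2 targets was at 57.7 to 65.1 CPM in WT intestine and 159 to 225 CPM in tumours, the glutathione group at 156 to 189 CPM and 235 to 267 CPM, and NADPH supply at 291 to 341 CPM and 385 to 430 CPM. On this scale the superoxide and catalase group, at 179 to 196 CPM and 92.4 to 125 CPM, was lower in tumours. So were the regulators, at 133 to 148 CPM and 112 to 130 CPM, a sum that joins activator, inhibitor, repressor and partner genes. Of these only the repressor gene Bach1 fell (mean 36.7 and 15.1 CPM per kb), and the log2 fold changes of Keap1 (0.33) and Mafg (0.27) were positive. The sums of the thioredoxin, peroxiredoxin and glutathione peroxidase groups overlapped between WT intestine and tumours. Each sum weighs its genes by length, and the exons of Sod1 span 3970 bases against 641 in its longest coding transcript. With the shorter length Sod1 would weigh more, and whether its group would still be lower was not tested.

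**Figure D4:**
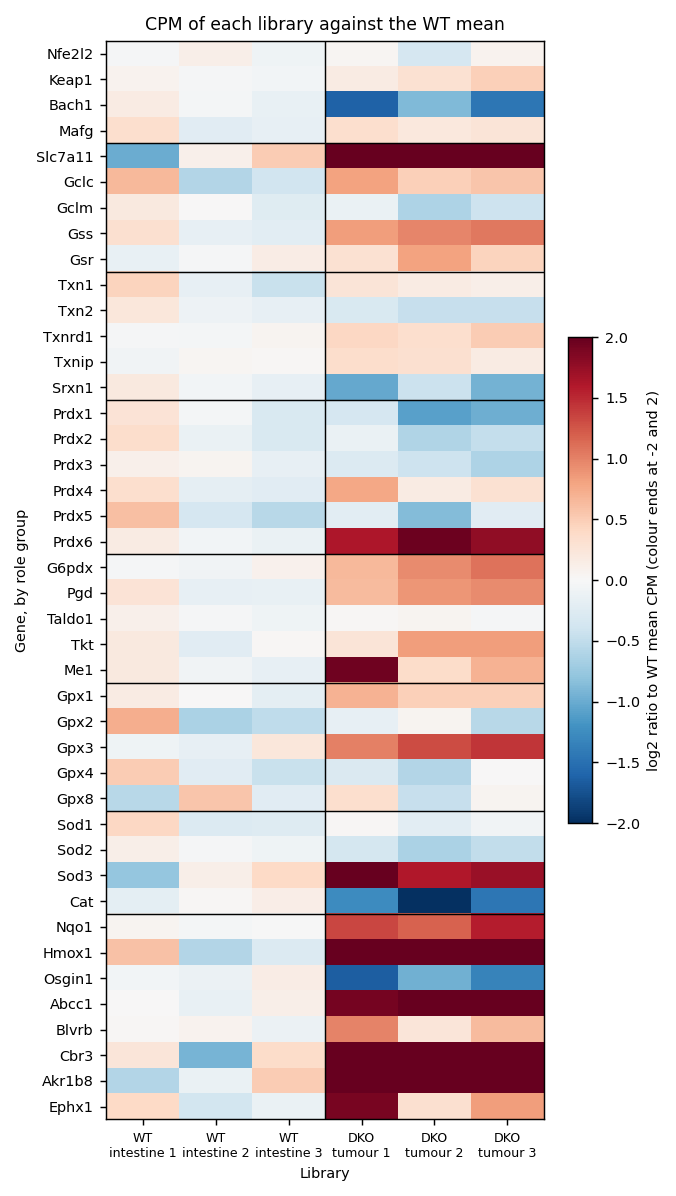
Level of each gene in each library as the log2 ratio of its CPM to the WT mean, genes in rows by role group and libraries in columns; colours end at -2 and 2. The 3 tumours share the dark red rows of Slc7a11, Hmox1, Abcc1, Cbr3 and Akr1b8, and Me1 and Ephx1 are darkest in DKO tumour 1.

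Of 86 further genes of the pathway, listed by role, 79 were tested, 8 rose (10.1%) and 15 fell (19%), with a median log2 fold change of -0.04. Over all genes the shares were 15.9% and 13.8%. Abcc3, an exporter of conjugates, averaged 92.1 CPM over the WT libraries (SD 13, n = 3) and 315 CPM over the tumours (SD 58; log2 fold change 1.77, SE 0.19, edgeR adjusted p = 0.000779). Abcc4, another, averaged 5.59 CPM (SD 1.59) and 42.4 CPM (SD 16.6; log2 fold change 2.91, SE 0.34, adjusted p = 0.00112). Abcc5 rose by 1.67 on the log2 scale and Slc1a4, a neutral amino acid carrier, by 1.45. H6pd, the glucose-6-phosphate dehydrogenase of the endoplasmic reticulum, rose by 1.70, and Txnrd3, a thioredoxin reductase with a glutaredoxin domain, by 1.00. Carriers of the list went both ways, since Abcc2, another conjugate exporter (545 CPM, SD 133, against 264 CPM, SD 69.6; log2 fold change -1.05, SE 0.26, adjusted p = 0.0202), and Slc3a2 fell. Abcc2 was picked after its value was seen.

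The falls of that list were led by Sesn1, a sestrin and p53 target, at 184 CPM over the WT libraries (SD 10.3, n = 3) and 39.2 CPM over the tumours (SD 5.1; log2 fold change -2.23, SE 0.14, edgeR adjusted p = 0.000128). Me2, the mitochondrial malic enzyme, was next, from 793 CPM (SD 240) to 186 CPM (SD 56.2; -2.09, SE 0.30, adjusted p = 0.00246). Of 18 enzymes and carriers of glutathione handling, 6 fell (33.3%, against 13.8% of all genes) and Slc1a4 alone rose. The falls were Slc3a2, the breakdown enzymes Ggt1 and Ggct, Cth, which makes cysteine (-1.07), Hagh, a glyoxalase (-1.65), and Glrx, a glutaredoxin (-1.16). Msra, a methionine sulfoxide reductase, fell by 1.15. Without DKO tumour 3 the falls of the list numbered 7, while those of all genes went from 1911 to 883. Without WT intestine 1 the rises of the list numbered 14, while those of all genes went from 2211 to 2194.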

How the data were processed

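Whole small intestinal tissue was measured by poly(A) RNA sequencing. The authors deposited raw read counts per gene symbol, per the file headers 1 column per sample, and STAR, DESeq2 and the build mm10 are named in the submitters' processing notes. How reads were counted, with which annotation and strand, is not given in the sources used here. Reads of overlapping genes or copies may therefore be split or lost. The deposited sheet's title names normal DKO tissue while its columns name DKO tumours, and the columns were followed. Of 23420 rows, 27 held spreadsheet dates (0.218% to 0.241% of counts) and were set aside.

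The fit took each gene that reached 10 counts in 3 libraries, and was made with edgeR 4.0.16 (TMM, quasi-likelihood test, Benjamini-Hochberg over all 13866 genes) in R 4.3.3, a step checked on simulated data. CPM are counts over TMM-scaled library size. The SE is the log2 fold change over the root of the quasi-F statistic. Levels per kilobase use the union of GENCODE M21 exons, and shared 75-base stretches (the read length) were sought in its transcripts. That union can be longer than the main transcript of a gene, so levels, shares and ranks between genes depend on it. Nothing in the labels says that WT and tumour samples with the same number are related, and their deviations from the group means correlated at 0.02, 0.01 and -0.03. DESeq2 1.42.0 was an alternative. Members and lists were chosen with earlier results of these data known. Every member is reported, and of the further list the 6 rises and 6 falls with the smallest adjusted p. Nothing in the labels says that the samples of a group came from separate mice, so p-values measure the spread between these samples, which may be technical.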

Additional observations from a re-analysis of the deposited data

How the results depend on the processing

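Of the 14 genes that rose, 11 kept their call under all 13 alternatives, the exceptions being Pgd, Gpx1 and Blvrb, and of the 5 that fell 3 did, the exceptions being Srxn1 and Sod2. Rises numbered 24 and falls 3 under library totals. With the DESeq2 test 19 rose and 8 fell, and over all genes 2328 and 2353. Under upper-quartile factors 19 rose and 4 fell. When 1 library was left out, rises numbered 11 to 16 and falls 3 to 6. In the further list, rises numbered 20 under library totals, 13 under upper-quartile factors and 6 to 14 with 1 library left out, and falls 7 to 17. Over all genes the rises under these settings were 3767, 2678 and 1159 to 2368, against 2211 in the main fit. Genes without a call changed sign as follows. Nfe2l2 was at 0.197 under library totals, 0.0275 under upper-quartile factors and -0.132 to 0.0573 with 1 library left out, and Sod1 at 0.201, 0.00923 and -0.199 to 0.18. Gpx2 and Gpx4 were at 0.1 and 0.0166 under library totals and at -0.441 to 0.366 and -0.438 to 0.0623 with 1 library left out, and Prdx5 at -0.598 to 0.0295. Taldo1 and Gpx8 were at -0.00127 and -0.00142 with DESeq2, -0.00145 and -0.00157 with its size factors, and -0.00777 to 0.0659 and -0.189 to 0.393 with 1 library left out. The cause was not tested. With the replicate block, 14 members rose and 6 fell. Gpx1 and Blvrb lost their call and Prdx1, Me1 and Ephx1 passed. Of the further list 7 rose and 13 fell with the block, and of all genes 1788 rose and 1508 fell. Some genes without a call in the main fit passed with 1 library left out. These were Mafg, Gclc and Tkt without WT intestine 1, and Gsr, Prdx1, Prdx3 and Tkt without DKO tumour 1. Without DKO tumour 2, Me1 and Ephx1 passed. Each of these genes also passed under library totals or with DESeq2. Keap1 passed under library totals and upper-quartile factors, and Txnrd1 under both and with DESeq2. Txnip and Prdx4 passed under library totals only, and Txn2 with DESeq2 only. Gpx8 was not tested with the filter of 50 counts. With 3 libraries a group, differences the size of those of Gsr, Txnrd1, Prdx3, Tkt and Me1 lay near the threshold.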
